A study of Saccharomyces cerevisiae with 24 samples.

Results

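Ribosome footprints recovered with Hel2 from the cytosol were compared between budding yeast (Saccharomyces cerevisiae) in which SRP72 was expressed from the GIT1 promoter and yeast in which it was expressed from its own promoter. The comparison was defined by the sample labels alone and rested on 4 of the 24 libraries of the study, 2 labelled GIT1p and 2 labelled SRP72p. Both strains were MATa, carried the alleles ade2, his3, leu2, trp1, ura3 and can1 and an FTP-tagged Hel2 (HEL2-FTP::natNT2), and had lost the chromosomal SRP72 gene to a HISMX6 cassette. They differed, per the labels, only in the plasmid that supplied V5-tagged Srp72, pRS415-GIT1p-SRP72-V5 or pRS415-SRP72p-SRP72-V5, so neither group is a strain with an untouched SRP72 gene. Cells were grown in YPD, a rich glucose medium, at 30 °C, ribosomes were trimmed to footprints with RNase I, and the membrane fraction, but not the cytosolic one, is labelled as solubilised with 1% Triton X-100, a detergent. The study also held cytosolic inputs (all footprints of the fraction) and Hel2 immunoprecipitates (IPs) from the membrane fraction of the same strains, which are used here only beside the cytosolic IPs. Groups held 2 replicates each. Nothing in the labels says that replicates were separate cultures, so p-values measure only the spread between libraries, which may be technical.

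Srp72 belongs to the signal recognition particle (SRP), a complex of protein and RNA that binds the signal sequence of a secretory or membrane protein as it leaves the ribosome and carries ribosome, nascent chain and message to the endoplasmic reticulum (ER). Hel2, a ubiquitin ligase, senses ribosomes that have run into each other and marks them for ribosome quality control. GIT1 encodes a plasma membrane transporter of glycerophosphoinositol, and its promoter responds to phosphate and inositol supply. Footprints in a Hel2 IP are those of ribosomes that came down with Hel2. Their share of a library gives neither the total amount of Hel2-bound ribosomes nor the amount of a message, and more ribosomes on a message, more of the message and more Hel2 on its ribosomes cannot be told apart in the IP alone.

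The libraries labelled SRP72p held 3010662 and 4203967 counts and those labelled GIT1p held 4723443 and 4677906, so that 3 counts correspond to between 0.635 and 0.996 CPM (counts scaled to 1e6 per library). The 2 libraries of a label were not copies of each other: a chi-square test of their counts gave 7.23 (SRP72p) and 11.9 (GIT1p) per degree of freedom, where sampling noise alone gives about 1. Levels are given in CPM, and log2 changes are GIT1p minus SRP72p from edgeR's quasi-likelihood test with TMM scaling, with Benjamini-Hochberg adjusted p-values over 5714 genes and a threshold of 0.05. A gene is said to have risen or fallen when it passed that threshold.

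The label was checked first on SRP72 itself, which lies on chromosome XVI from 154290 to 156212 in assembly R64, the build named sacCer3 in the submitters' processing notes. SRP72 footprints stood at 111 and 127 CPM in the SRP72p libraries and at 362 and 305 CPM in the GIT1p libraries. Both GIT1p libraries were above both SRP72p libraries. The log2 change was 1.60 ± 0.12 (SE, adjusted p = 2.4e-07, n = 2 against 2 libraries, edgeR), and the direction was the same in the cytosolic input (1.21) and the membrane IP (2.26). The libraries labelled GIT1p thus held the higher SRP72 signal in each of these fractions, and the labels state no direction for it. GIT1 itself was at 11.3 and 5.23 CPM under SRP72p and at 17.4 and 22.0 CPM under GIT1p, a rise of 1.44 ± 0.33 (adjusted p = 0.0044) that missed the threshold without SRP72p replicate 2 (0.91, adjusted p = 0.081).

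HEL2 (chromosome IV, 1000104 to 1002023), the message of the protein used for the IP, was at 59.1 and 59.9 CPM under SRP72p and at 61.4 and 69.9 CPM under GIT1p. Its log2 change of 0.26 ± 0.12 did not pass the test (adjusted p = 0.11, edgeR).

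Several genes of the markers named in the genotypes did not follow the labels, which list the same alleles for both strains. HIS3, a histidine synthesis enzyme (chromosome XV, 721946 to 722608), was at 5989 and 5098 CPM under SRP72p and at 31.1 and 27.1 CPM under GIT1p, and fell by 7.46 ± 0.21 on the log2 scale (adjusted p = 2.6e-11). TRP1, of tryptophan synthesis (chromosome IV, 461842 to 462516), was at 221 and 235 CPM against 0.847 and 3.85 CPM and fell by 6.47 ± 0.41 (adjusted p = 7.3e-08). For both genes the GIT1p libraries lay far below the SRP72p libraries. LEU2, of leucine synthesis (chromosome III, 91324 to 92418), ran the other way, with 120 and 128 CPM against 1074 and 926 CPM and a rise of 3.13 ± 0.38 (adjusted p = 2.5e-05); pRS415 vectors carry LEU2. HIS3, TRP1 and LEU2 moved in the same direction in the cytosolic input (-4.53, -5.43 and 4.74) and in the membrane IP (-6.80, -6.19 and 3.21). ADE2 was at 31.2 and 23.1 CPM against 10.6 and 14.5 CPM and fell by 0.98 ± 0.31 (adjusted p = 0.027), a call lost without GIT1p replicate 1 (adjusted p = 0.20) or SRP72p replicate 1 (adjusted p = 0.19). URA3 (0.27, adjusted p = 0.29) and CAN1 (0.04, adjusted p = 0.93) did not pass the test. Footprints of HIS3, TRP1 and LEU2 thus differed between strains whose labels give the same alleles. The promoter of SRP72 and whatever else sets the strains apart cannot be told apart in the comparisons that follow. The open reading frames YOR203W (554 and 440 against 1.482 and 1.496 CPM) and YDR008C (30.2 and 40.9 against 1.06 and 1.07 CPM), next in systematic number to HIS3 (YOR202W) and TRP1 (YDR007W), were among the largest falls; shared reads with those genes could not be checked, so their values are uncertain.

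Among the other SRP genes, those of the remaining subunits and of the receptor did not follow SRP72. SRP54, the subunit that binds the signal sequence, was at 59.1 and 66.6 CPM under SRP72p and at 48.3 and 35.3 CPM under GIT1p and fell by 0.48 ± 0.13 (adjusted p = 0.014). YDR292C, the gene of the alpha subunit of the SRP receptor, was at 65.1 and 65.9 against 40.9 and 41.0 CPM and fell by 0.56 ± 0.14 (adjusted p = 0.0065). Groups did not overlap for either gene, but SRP54 missed the threshold without GIT1p replicate 2 (adjusted p = 0.14) or SRP72p replicate 2 (adjusted p = 0.11), and YDR292C without GIT1p replicate 1 (adjusted p = 0.062). SRP68, the partner of Srp72 in the particle, changed by -0.33 ± 0.13 (adjusted p = 0.087). SRP14, SRP21, SEC65 and YKL154W, of the receptor's beta subunit, had log2 changes of -0.05, 0.10, 0.37 and 0.52 and did not pass the test. Among all genes tested, 18.7% rose and 9.77% fell. In the list of SRP subunits and receptor, 1 of 8 genes rose, 2 fell and the median change was 0.03, which turned to -0.09 with library size alone. With RPKM-implied totals the median was 0.45, SRP72 still rose and 0 genes fell (edgeR), so that the falls of SRP54 and YDR292C did not pass the test there.

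**Figure D1:**
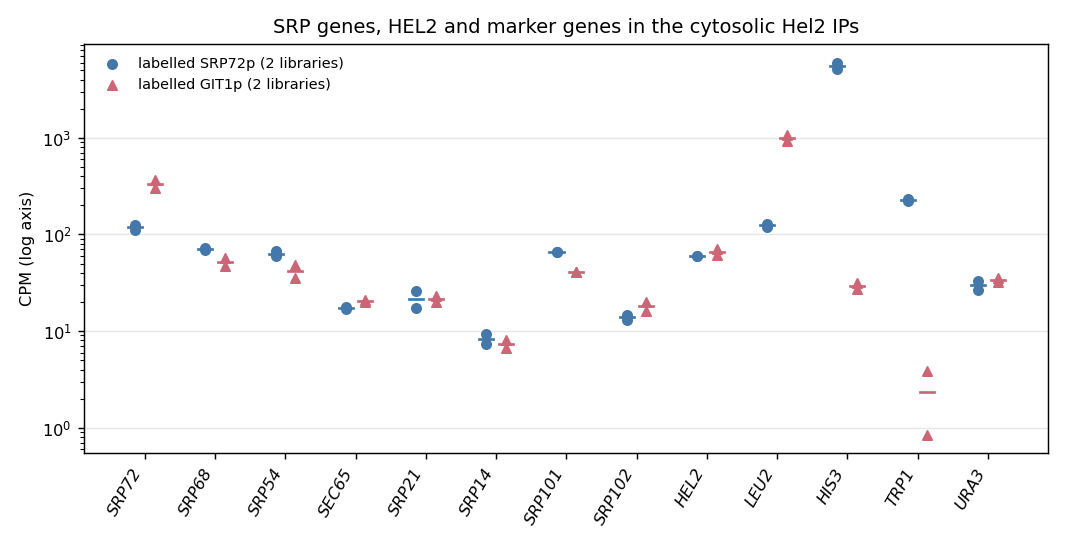
Levels of the SRP subunit and receptor genes, HEL2 and 4 marker genes in each of the 4 cytosolic Hel2 IP libraries, in CPM on a log axis, with a point per library and a bar at the mean of each label. SRP72 and LEU2 sit higher in both GIT1p libraries and HIS3 and TRP1 far lower, while HEL2 lies between 59.1 and 69.9 CPM in the 4 libraries.

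Of the 5714 genes tested, 1625 (28.4%) differed between the labels, of which 1067 (18.7%) rose and 558 (9.77%) fell under GIT1p, with a median log2 change of 0.05 over all genes. The split depended on the scaling. With library size alone 809 rose and 842 fell, DESeq2 gave 823 and 850, DESeq2's size factors in edgeR gave 855 and 911, and the library totals implied by the deposited RPKM gave 583 and 12. The first 3 of these moved the median of all genes to -0.07 and the RPKM-implied totals moved it to 0.47, so changes are best read against the median of all genes. Between 322 and 362 genes fell when any 1 of the 4 libraries was left out.

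The messages found at the membrane, where SRP delivers its ribosomes, were taken from other libraries of the study, the inputs of the HEL2-FTP strain, whose label gives no change at SRP72, as genes at least 1 log2 unit higher in the membrane than in the cytosolic input. Of the 862 such membrane-enriched genes that were tested, 481 rose and 23 fell in the cytosolic Hel2 IP under GIT1p, with a median log2 change of 0.66. Of the 4572 genes measured in those inputs and not membrane-enriched, 564 rose and 525 fell, with a median of -0.03. The median of the membrane-enriched genes stood 0.69 above that of the other genes, and it stayed between 0.65 and 0.73 above it in each alternative scaling, filter, choice of libraries and set definition tried. With RPKM-implied totals in edgeR 302 of them rose and 0 fell. A set defined from the SRP72p and GIT1p inputs, 726 genes of which 720 were in the first set, had 453 rises and 18 falls; it shares strains with the libraries compared.

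From a membrane log2 enrichment of 1 upward, the difference grew with the membrane enrichment of the gene. Of genes with a membrane log2 enrichment of -0.5 to 0, 12.3% rose and 11.4% fell (n = 3762, median -0.03). From 1 to 2, 27.5% rose and 4.72% fell (n = 233, median 0.35). From 2 to 3 these shares were 54.2% and 3.08% (n = 325, median 0.67), and at 3 or above they were 79.3% and 0.658% (n = 304, median 0.81). Genes from 0 to 0.5 (n = 653) had a median of -0.07 and those from 0.5 to 1 (n = 129) a median of 0.03. The few genes below -0.5 (n = 28) had a median of 0.10, so the medians did not grow steadily below 1.

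**Figure D2:**
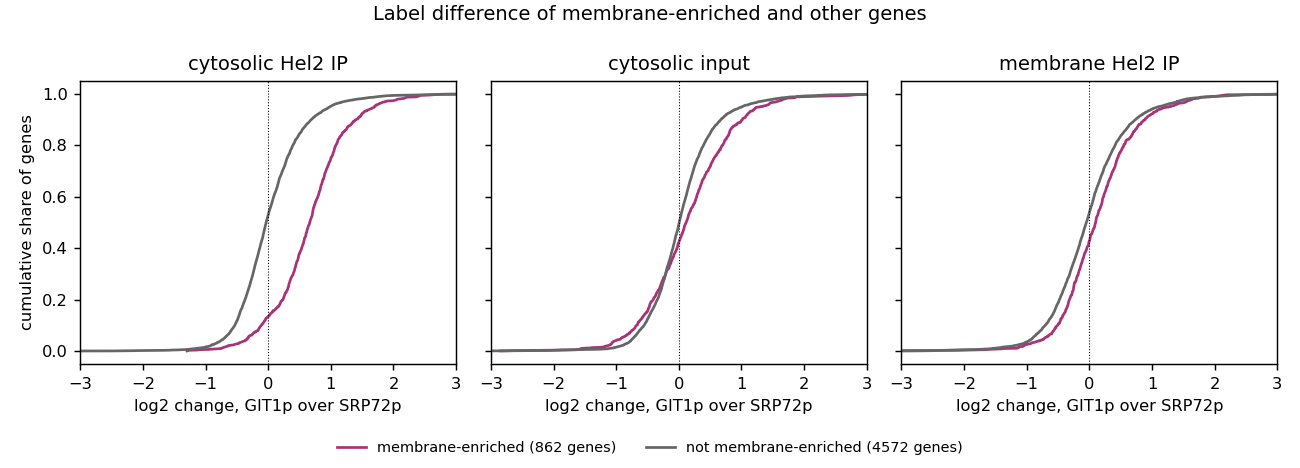
Cumulative share of genes (y axis, as a fraction) at or below each log2 change, GIT1p over SRP72p (x axis), for the 862 membrane-enriched genes and the 4572 other genes measured in the HEL2-FTP inputs, in 3 panels for the cytosolic Hel2 IP, the cytosolic input and the membrane Hel2 IP. In the cytosolic Hel2 IP the curve of the membrane-enriched genes lies to the right, with medians of 0.66 and -0.03, and in the other 2 panels the curves lie closer, with membrane-enriched medians of 0.12 and 0.10.

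In the single libraries, the median log2(CPM + 0.5) of the membrane-enriched genes minus that of the other genes was -0.062 and -0.11 in the SRP72p cytosolic IPs and 0.54 and 0.52 in the GIT1p cytosolic IPs. The 2 labels did not overlap there. In the cytosolic inputs it was -1.44 and -1.62 under SRP72p and -1.53 and -1.49 under GIT1p, where the labels overlapped. In the membrane inputs it was 0.54 and 0.57 under SRP72p and 0.54 and 0.48 under GIT1p, and in the membrane IPs 0.55 and 0.47 against 0.64 and 0.69. The GIT1p cytosolic IPs thus lay within the range of the membrane libraries on this measure, and each of the cytosolic IPs lay above each cytosolic input.

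**Figure D3:**
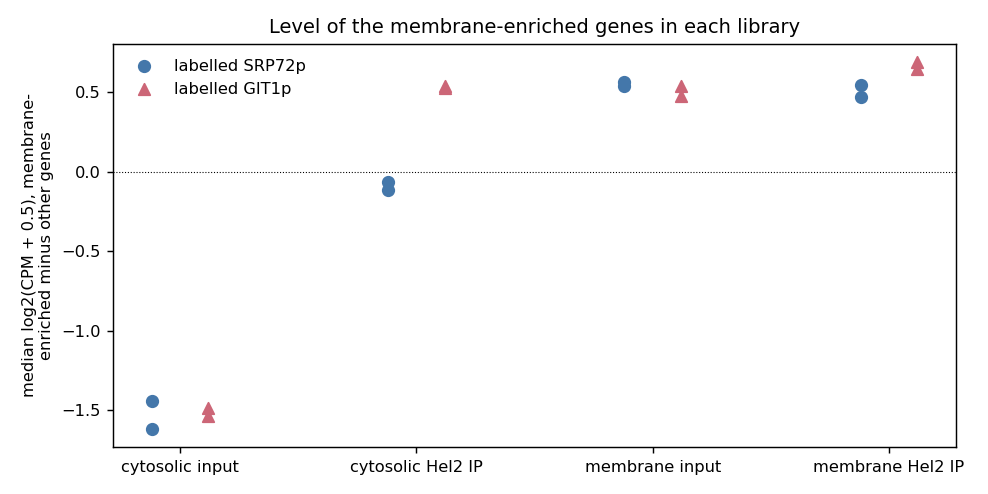
Median log2(CPM + 0.5) of the 862 membrane-enriched genes minus that of the other genes (y axis) in each of the 16 count libraries, with a point per library, grouped by fraction and label. In the cytosolic IPs the SRP72p points lie at -0.062 and -0.11 and the GIT1p points at 0.54 and 0.52, whereas the cytosolic inputs lie between -1.62 and -1.44 under both labels.

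The same contrast of labels was fitted in the cytosolic inputs and in the membrane IPs, and the difference between contrasts was tested as an interaction. In the inputs 767 genes rose and 709 fell (25.8% called), and among membrane-enriched genes 166 rose and 99 fell. In the membrane IPs 723 rose and 690 fell (24.7% called), and among membrane-enriched genes 164 rose and 56 fell. The label effect differed between the cytosolic IP and the cytosolic input for 633 genes (11.1%), larger in the IP for 478 genes (8.37%) and smaller for 155 (2.71%); of these, 231 and 7 were membrane-enriched. Against the membrane IP it differed for 186 genes (3.26%), larger for 158 (2.77%) and smaller for 28 (0.49%), of which 129 and 3 were membrane-enriched. These counts moved with scaling and library. With library size alone the effect was larger than in the input for 216 genes and smaller for 747. Of these, 126 and 24 were membrane-enriched. With RPKM-implied totals it was larger for 57 and smaller for 140, of which 0 and 8 were membrane-enriched. Against the membrane IP, RPKM-implied totals gave 0 calls with edgeR, where 267 genes had an unadjusted p below 0.05, and DESeq2 gave 266. Leaving out GIT1p replicate 1 or 2 or SRP72p replicate 1 or 2 left 397, 391, 310 and 508 calls against the input and 35, 75, 57 and 73 against the membrane IP. The median difference for membrane-enriched genes relative to the other genes was 0.55 against the input and 0.52 against the membrane IP, and it stayed between 0.51 and 0.57 under each of these alternatives.

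Of the 1067 genes that rose in the cytosolic IP, 466 (43.7%) also rose in the cytosolic input, where they were 60.8% of the rises, and 518 (48.5%) also rose in the membrane IP, where they were 71.6% of the rises. Of the 558 that fell, 216 (38.7%) also fell in the input, 30.5% of the falls there, and 310 (55.6%) in the membrane IP, 44.9% of the falls there.

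The largest rise was that of INO1 (chromosome X, 134332 to 135933), the enzyme that makes inositol phosphate from glucose phosphate. It was at 3.65 and 2.14 CPM under SRP72p and at 48.7 and 42.5 CPM under GIT1p, a rise of 4.14 ± 0.46 (adjusted p = 1.2e-05), with 5.03 in the input and 4.56 in the membrane IP. The SRP72p libraries thus held few INO1 footprints. PIR3, a covalently bound cell wall protein, rose by 2.89 ± 0.13 from 177 and 219 CPM to 1395 and 1314 CPM (adjusted p = 4.7e-09). The plasma membrane transporters SUL2, for sulfate, and QDR2, a multidrug exporter, rose by 2.79 ± 0.22 and 2.69 ± 0.38. SUL2 was at 6.64 and 5.95 CPM against 40.01 and 39.8 CPM, and QDR2 at 2.99 and 4.28 CPM against 21.6 and 22.9 CPM. The other large rises were GND2 (2.67), of the pentose phosphate pathway, NQM1 (2.53), a transaldolase, GPG1 (2.48), HSP12 (2.47), a small membrane-associated stress protein, and the frame YER188W (2.62).

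After HIS3, TRP1 and the frames YOR203W (-8.25) and YDR008C (-4.93) described above, the largest falls were HMS2 (-2.22), YLR108C (-2.12), LEU1 (-2.10), ARO10 (-2.10), OAC1 (-1.96) and YGL088W (-1.76). LEU1, the second enzyme of the leucine branch, was at 489 and 542 CPM under SRP72p and at 128 and 94.7 CPM under GIT1p, with no overlap (adjusted p = 6.9e-08, edgeR). OAC1, a mitochondrial carrier that exports the leucine precursor isopropylmalate, was at 96.7 and 81.6 CPM against 20.3 and 21.6 CPM. ARO10, a decarboxylase of aromatic amino acid breakdown, was at 169 and 151 CPM against 34.9 and 33.8 CPM. LEU1, OAC1 and ARO10 fell to a like extent in the input (-2.00, -1.95 and -1.69) and in the membrane IP (-1.97, -1.59 and -1.67).

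**Figure D4:**
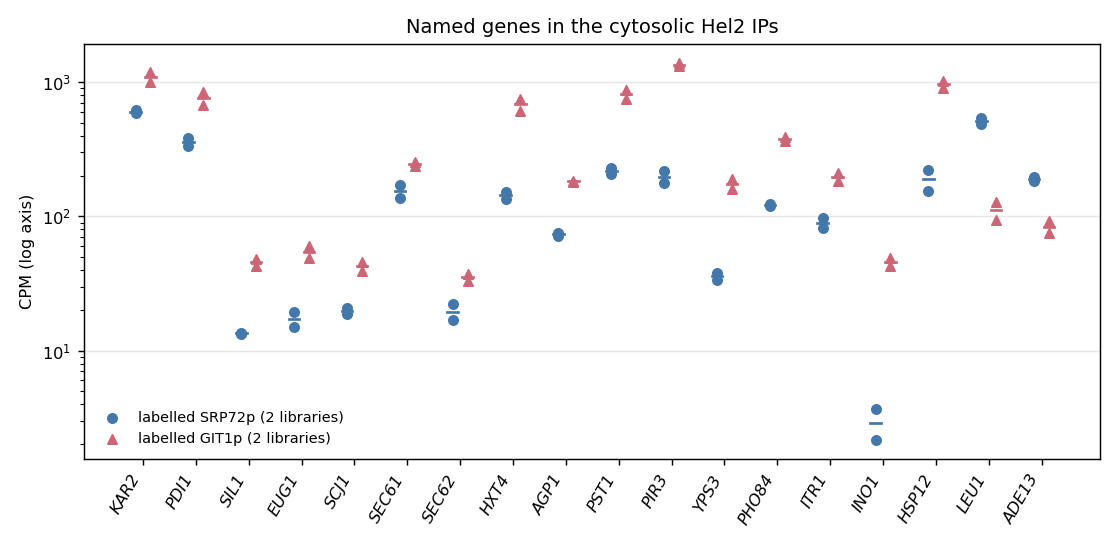
Levels of named genes in each of the 4 cytosolic Hel2 IP libraries in CPM on a log axis, with a point per library and a bar at the mean of each label. All genes shown but LEU1 and ADE13 are higher in both GIT1p libraries than in both SRP72p libraries, and LEU1 and ADE13 are lower in both.

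ER chaperones and genes of the unfolded protein response, which fold newly translocated proteins, rose more often than the 18.7% of all genes. Of 28 tested, 19 rose and 0 fell, with a median log2 change of 0.83 (with edgeR 1 was lower at an unadjusted p below 0.05, and DESeq2 called 0 lower). Of the 28, 21 were in the membrane-enriched set, of which 55.8% rose with a median of 0.66, so that set is the closer comparison. SIL1, the exchange factor of the ER Hsp70, was at 13.6 and 13.3 CPM under SRP72p and at 48.1 and 42.8 CPM under GIT1p, a rise of 1.87 ± 0.18 (adjusted p = 3.6e-06). EUG1, a protein disulfide isomerase, rose by 1.77 ± 0.25 (14.9 and 19.3 against 59.9 and 49.4 CPM), and SCJ1, an ER J-protein, by 1.22 ± 0.18 (18.6 and 20.9 against 39.4 and 45.7 CPM). The GIT1p libraries were above the SRP72p libraries for all 3. The main ER Hsp70, KAR2, and the main disulfide isomerase, PDI1, chosen here after their values were seen, rose by 0.97 ± 0.10 and 1.19 ± 0.12, against 0.00 and 0.35 in the input and 0.19 and 0.46 in the membrane IP. The median of the list was 0.24 in the input and 0.13 in the membrane IP, and the label effect was larger in the cytosolic IP than in the input for 10 members and smaller for 1; against the membrane IP these numbers were 7 and 1.

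Of 25 translocon and other ER targeting genes, 6 rose, near the 18.7% of all genes, and 0 fell (median 0.33, 3 to 9 rises when 1 library was left out and 1 with RPKM-implied totals). At an unadjusted p below 0.05 edgeR had 1 lower, and DESeq2 called 1 lower. SEC61, the channel of the translocon, was at 138 and 171 CPM against 254 and 236 CPM and rose by 0.78 ± 0.12 (adjusted p = 0.00019). SEC62, of the post-translational translocon, rose by 0.95 ± 0.19. The other 19 did not pass the test. SEC61 changed by 0.19 in the input and -0.07 in the membrane IP, neither past the threshold.

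Genes of cell surface proteins mostly rose. Of 37 cell wall and GPI-anchored protein genes, 26 rose and 1 fell, with a median of 0.90. Of the 37, 14 were in the membrane-enriched set, of which 55.8% rose with a median of 0.66. PST1, a GPI-anchored wall protein, was at 208 and 230 CPM under SRP72p and at 876 and 753 CPM under GIT1p, a rise of 2.01 ± 0.10 (adjusted p = 6.9e-09). TIR3, a wall mannoprotein, rose by 1.99 ± 0.23 (14.3 and 20.0 against 60.5 and 66.5 CPM). CCW12, among the most abundant of the called genes, rose by 0.52 ± 0.14 (5648 and 7318 against 9150 and 7972 CPM), with -0.44 in the input and 0.72 in the membrane IP, and missed the threshold without GIT1p replicate 1 or SRP72p replicate 1 (adjusted p = 0.079 and 0.14). The list's median was 0.12 in the input and 0.93 in the membrane IP.

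Of the hexose transporter genes, 11 of 19 were tested, and 10 of these 11 were membrane-enriched. Of the 11, 7 rose and 0 fell, with a median of 1.44 (1.18 in the input and 1.26 in the membrane IP). The other 8 were below the expression filter, and no tested member was lower at an unadjusted p below 0.05 with edgeR or called lower with DESeq2. HXT4 was at 135 and 152 CPM against 752 and 615 CPM, a rise of 2.37 ± 0.11 (adjusted p = 6.9e-09). HXT6 and HXT7 rose by 2.06 and 2.05, but their near-identical sequences make the split of reads between them uncertain. Of 20 amino acid permeases, 11 rose and 0 fell (median 0.59). With edgeR 1 was lower at an unadjusted p below 0.05, and DESeq2 called 1 lower. Of the 20, 19 were membrane-enriched, and their share of rises and median were near those of that set (55.8% and 0.66). AGP1 was at 75.7 and 71.1 CPM against 182 and 184 CPM, a rise of 1.44 ± 0.09, and HIP1, the histidine permease, at 50.8 and 49.0 CPM against 114 and 94.7 CPM, a rise of 1.18 ± 0.19. GAP1, the general amino acid permease, rose by 1.25 ± 0.09 in the IP and by 1.71 in the input, so that its label effect was smaller in the IP than in the input (-0.46, adjusted p = 0.036).

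Among membrane-enriched genes with a mean of at least 50 CPM, the largest rises included YPS3, a GPI-anchored aspartyl protease (2.42 ± 0.11, 37.5 and 33.8 against 191 and 160 CPM), RTN2, a reticulon of the tubular ER (2.20 ± 0.09, 70.1 and 75.4 against 324 and 293 CPM), and YRO2, a plasma membrane protein (2.17 ± 0.11, 343 and 350 against 1576 and 1310 CPM). Each had a larger label effect in the cytosolic IP than in the cytosolic input, by 1.60, 0.83 and 1.08. The few membrane-enriched genes that fell included SNQ2, a multidrug transporter (-0.73 ± 0.11, 1430 and 1376 against 782 and 775 CPM), LEU9, a leucine synthesis enzyme (-0.90 ± 0.12), and the mitochondrial proteins YME1 (-0.71 ± 0.13) and NDE1 (-0.68 ± 0.09).

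Genes of the phosphate response rose in part, with 11 of 25 up, 2 down and a median of 0.32. Over all genes 18.7% rose and 9.77% fell. Of the 25, 13 were membrane-enriched, a set of which 55.8% rose with a median of 0.66. The 2 that fell changed by -0.62 and -0.49 (adjusted p = 0.0013 and 0.0012, edgeR). PHO84, the high-affinity phosphate transporter, was at 124 and 120 CPM against 392 and 367 CPM, a rise of 1.75 ± 0.10 (adjusted p = 2.3e-08), and PHO5, a secreted acid phosphatase, at 60.8 and 48.3 CPM against 171 and 144 CPM, a rise of 1.65 ± 0.13 (adjusted p = 3.6e-07). Both were lowest in the SRP72p libraries. Their label effects in the input were 0.68 and 0.27 and the IP exceeded the input by 1.08 and 1.38. Of 26 inositol and phospholipid synthesis genes, 12 rose and 2 fell (median 0.31, and 7 to 9 rises when 1 library was left out). Of the 26, 11 were membrane-enriched, and the shares over all genes were again 18.7% up and 9.77% down. The 2 that fell changed by -0.84 and -0.96 (adjusted p = 0.026 and 0.0087, edgeR). Beside INO1 the rises included ITR1, the inositol transporter, with 82.4 and 97.5 CPM against 210 and 184 CPM (1.25 ± 0.11). Another was DGK1, a diacylglycerol kinase of the ER, with 11.6 and 13.3 CPM against 26.9 and 22.2 CPM (1.08 ± 0.23). ITR1 and DGK1 were membrane-enriched.

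**Figure D5:**
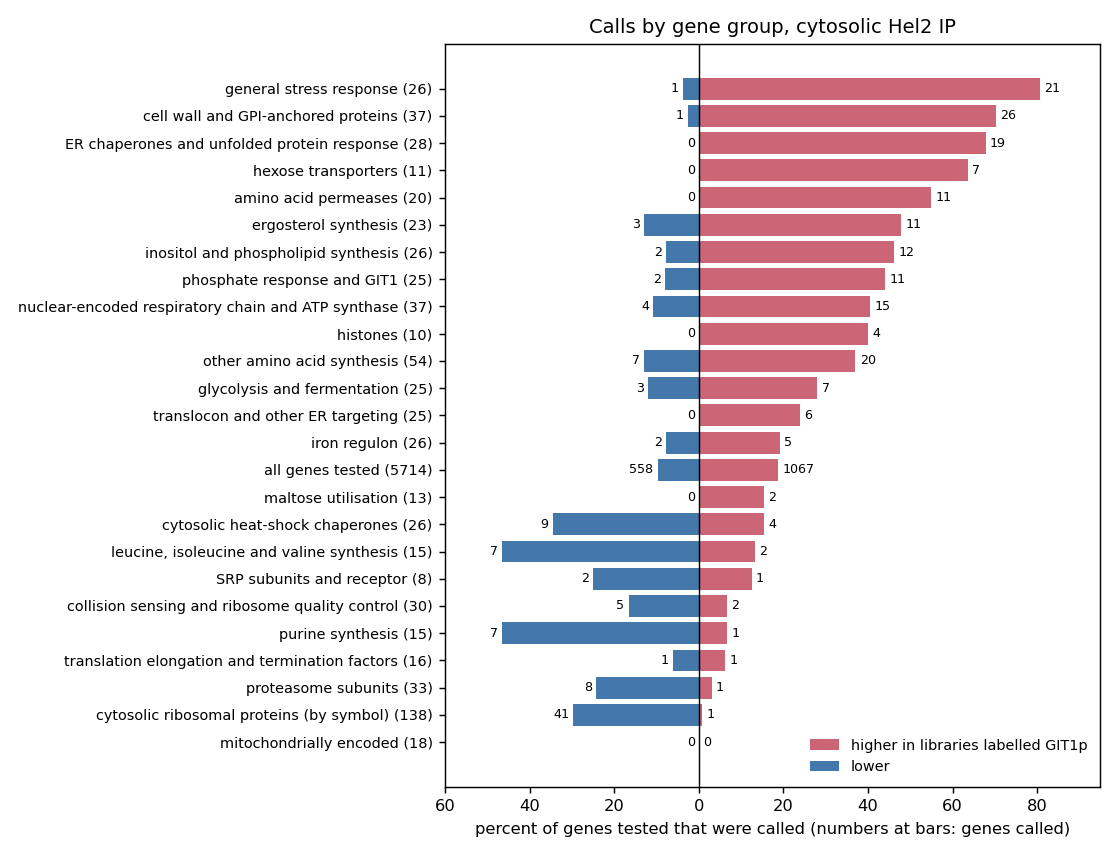
Share of the tested members of each gene list that rose (right, percent) or fell (left, percent) under GIT1p in the cytosolic Hel2 IP, ordered by the share that rose, with all genes tested among them and the number of genes at each bar. General stress genes (21 of 26), cell wall genes (26 of 37) and ER chaperones (19 of 28) lie mostly to the right, and the leucine, isoleucine and valine list and the purine list, each with 7 of 15 down, reach farthest to the left.

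Leucine, isoleucine and valine synthesis genes fell more often than the 9.77% of all genes, with 7 of 15 down, 2 up and a median of -0.29, and 8 of the 15 fell in the input and in the membrane IP. Purine synthesis genes had 7 of 15 down and 1 up (median -0.28). ADE13, adenylosuccinate lyase, was at 198 and 182 CPM against 91.7 and 75.5 CPM and fell by 1.07 ± 0.10 (adjusted p = 3.7e-06), more than in the input by 0.67. Of 54 genes of other amino acid pathways, 20 rose and 7 fell (median 0.18, 10 to 17 rises when 1 library was left out). The share of all genes that rose was 18.7%. ARG1, of arginine synthesis, rose by 0.95 ± 0.09 (297 and 316 against 582 and 512 CPM), and MET3, ATP sulfurylase, by 1.17 ± 0.23 (14.9 and 26.4 against 41.7 and 46.2 CPM). With RPKM-implied totals the medians of the leucine and purine lists turned to 0.16 and 0.14, both below the median of all genes of 0.47, and 2 genes of the leucine list and 0 of the purine list fell (edgeR).

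General stress genes rose in all 3 fractions, with 21 of 26 up and 1 down in the cytosolic IP and medians of 0.70 there, 0.75 in the input and 1.00 in the membrane IP. Of all genes tested, 18.7% rose and 9.77% fell in the cytosolic IP. HSP12 was at 155 and 222 CPM against 1021 and 908 CPM, and DDR2 rose by 1.84 ± 0.18 (22.9 and 17.6 against 71.6 and 60.7 CPM). Of 26 cytosolic heat-shock chaperones, 4 rose and 9 fell (median -0.25, and 0.17 with 0 falls with RPKM-implied totals). The rises included HSP26, a small heat-shock protein, with 387 and 488 CPM against 1709 and 1456 CPM (1.97 ± 0.13), and SSA3, a stress-induced Hsp70 (1.92 ± 0.20). BTN2, a sorting factor for misfolded proteins, chosen here after its value was seen, fell by 1.41 ± 0.13, from 2311 and 2716 CPM to 958 and 794 CPM.

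The shares of maltose and iron genes that rose were near the 18.7% of all genes, and the share of iron genes that fell was near the 9.77%. Of 13 maltose utilisation genes 2 rose, MAL12 and MAL32 (2.42 and 2.32), near-identical maltases whose reads cannot be assigned apart. In the input 8 of the 13 rose and in the membrane IP 7, where 13.4% and 12.7% of all genes rose. Of 26 iron genes 5 rose and 2 fell, with FET4, a plasma membrane iron transporter, at 31.9 and 31.6 CPM against 69.9 and 64.8 CPM (1.20 ± 0.19) and FRE1, a ferric reductase, at 41.9 and 34.3 CPM against 13.1 and 15.2 CPM (-1.30 ± 0.21). The ergosterol list had 9 of its 23 genes in the membrane-enriched set, of which 55.8% rose. Of 23 ergosterol synthesis genes 11 rose and 3 fell (6 to 9 rises when 1 library was left out); HMG2, an HMG-CoA reductase of the ER membrane, rose by 1.14 ± 0.14 (44.8 and 50.7 against 104 and 91.1 CPM), with 0.04 in the input. Of 25 glycolysis and fermentation genes 7 rose and 3 fell (3 to 6 and 0 to 1 when 1 library was left out), led by ENO1, an enolase, at 8529 and 10490 CPM against 15062 and 13742 CPM (0.72 ± 0.13).

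For the machinery that reads collided ribosomes and handles stalled chains, 2 of 30 genes rose and 5 fell (1 to 3 and 3 to 5 when 1 library was left out), with a median of 0.00. The shares over all genes were 18.7% up and 9.77% down. RQT4, a subunit of the complex that splits collided ribosomes, was at 18.3 and 13.3 CPM under SRP72p and at 36.8 and 39.5 CPM under GIT1p (chromosome XI, 483419 to 485011). Both GIT1p libraries were higher, by 1.42 ± 0.32 (adjusted p = 0.0041, and 0.065 without SRP72p replicate 2). In the membrane IP the gene rose by 3.24. In the input it fell by 1.03, with 10.2 and 22.7 CPM under SRP72p against 11.1 and 7.94 CPM under GIT1p. The labels overlapped there, so its direction in the input is uncertain. ASC1, a protein of the small ribosomal subunit at the collision interface, was at 1641 and 1816 CPM against 975 and 931 CPM and fell by 0.74 ± 0.12 (adjusted p = 0.00042), with -0.70 in the input.

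Cytosolic ribosomal protein genes, grouped by symbol after the data were seen, had 41 of 138 down and 1 up in the cytosolic IP, with a median of -0.26 (8 to 34 falls when 1 library was left out). For this list and the next ones, the shares over all genes in the cytosolic IP were 18.7% up and 9.77% down. The number of falls among the ribosomal protein genes was 90 with DESeq2, 79 with its size factors in edgeR, 66 with library size alone and 0 with RPKM-implied totals, where their median was 0.15. In the cytosolic input 131 of them fell (median -0.66) and in the membrane IP 118 (median -0.62), so that the label effect was larger, that is less negative, in the cytosolic IP than in the input for 41. Translation elongation and termination factors had 1 of 16 up and 1 down in the cytosolic IP and 10 down in the input. That number in the IP rested on the scaling, with 11 down under DESeq2, 9 with its size factors in edgeR, 5 with library size alone and 0 with RPKM-implied totals. Of 33 proteasome subunits 8 fell and 1 rose (4 to 5 falls when 1 library was left out, 12 with DESeq2 and 0 with RPKM-implied totals; median -0.13, and 0.29 with RPKM-implied totals), among them RPN3 (-0.60 ± 0.12, 111 and 123 against 71.6 and 70.8 CPM). Of 10 histone genes 4 rose and 0 fell (1 to 3 rises when 1 library was left out; 1 was lower at an unadjusted p below 0.05 with edgeR and 1 was called lower with DESeq2), with HTB1 at 122 and 145 CPM against 191 and 171 CPM (0.56 ± 0.10) and -0.28 in the input.

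Nuclear-encoded respiratory chain and ATP synthase genes had 15 of 37 up and 4 down (median 0.37, 7 to 14 rises when 1 library was left out). Beside this count stand 18.7% up and 9.77% down over all genes. COX9, a subunit of cytochrome c oxidase, was at 20.9 and 26.4 CPM against 66.7 and 54.7 CPM and rose by 1.46 ± 0.18 (adjusted p = 2.5e-05), with -0.02 in the input. SDH2, of succinate dehydrogenase, rose by 0.99 ± 0.10 (52.5 and 57.8 against 105 and 97.9 CPM). Of the 18 listed genes on the mitochondrial genome, 0 passed the test in the cytosolic IP with edgeR (0 at an unadjusted p below 0.05), and 0 with DESeq2. Their SEs in edgeR ran from 0.77 to 1.14, so 0 calls do not show that they were unchanged. The shared estimate of spread took in the membrane inputs. Mitochondrial frames took 0.815% and 0.0402% of the counts there under SRP72p, and 0.00363% and 0.125% under GIT1p. Mitochondrial frames took 0.616% and 0.440% of the counts in the SRP72p cytosolic IPs and 0.481% and 0.624% in the GIT1p cytosolic IPs, which overlapped. In the cytosolic inputs they took 0.437% and 0.279% under SRP72p and 0.00277% and 0.00291% under GIT1p, where all 18 fell. The inputs of the 2 labels therefore differed in mitochondrial content, and its part in the comparisons with input was not tested.

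The labelled mating type was checked on its markers. Of 7 MATa genes, all were detected and 5 rose and 0 fell (0 lower at an unadjusted p below 0.05 with edgeR and 0 with DESeq2, and 3 to 5 rises when 1 library was left out), with STE2, the alpha factor receptor, at 98.98 and 91.8 CPM under SRP72p and at 170 and 157 CPM under GIT1p (0.90 ± 0.09, against 0.15 in the input). The median of the 7 MATa genes was 0.74, and 4 of them were in the membrane-enriched set. Of that set 55.8% rose with a median of 0.66, and of all genes 18.7% rose. STE3, the a factor receptor of MATalpha cells, was at 0.996 and 0.476 CPM against 3.39 and 3.21 CPM, that is 3 and 2 counts against 16 and 15. It passed the test (adjusted p = 0.015, edgeR; 0.059, 0.058 and 0.16 without GIT1p replicate 1, GIT1p replicate 2 or SRP72p replicate 2) and was the 1 of 3 tested MATalpha markers that rose, with 0 that fell (0 at an unadjusted p below 0.05, and 0 with DESeq2). SAG1, the alpha agglutinin, was at 13.3 and 8.33 CPM against 14.6 and 7.05 CPM, with overlap (adjusted p = 0.89), and MF(ALPHA)1, the gene of the alpha factor pheromone, ranged from 0 to 4.02 CPM. The summed level of the MATalpha markers ran from 10.5 to 22.0 CPM over the 4 libraries, most of it from SAG1, and that of the MATa markers from 307 to 514 CPM.

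The number of rises in several lists also moved with the scaling. With RPKM-implied totals 15 ER chaperones, 18 cell wall genes, 8 hexose transporters, 12 general stress genes and 7 amino acid permeases rose. Under the same scaling 5 phosphate response, 5 inositol and phospholipid, 5 ergosterol, 5 other amino acid, 4 respiratory, 3 MATa, 0 glycolysis and 0 histone genes rose, at a threshold that 583 genes passed upward (edgeR). With library size alone 7 inositol and phospholipid, 6 ergosterol, 9 other amino acid, 8 respiratory, 4 glycolysis and 2 histone genes rose.

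Coding length went with the change to a small degree. With genes cut into 4 equal classes of length, the median log2 change from the shortest class on was 0.15, 0.11, 0.08 and -0.09 over all genes and 0.69, 0.81, 0.63 and 0.53 among membrane-enriched genes, so that the membrane-enriched genes lay above all genes in each class.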

How the data were processed

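Ribosome footprints were analysed in the 2 GIT1p and 2 SRP72p cytosolic Hel2 IPs, with the inputs and membrane IPs of both strains beside them. Per the submitters' processing notes, reads were handled with CASAVA 1.8, UMI-tools, Bowtie2 and TopHat on build sacCer3; their order and settings are not given in the sources used here. For both strains the deposited files give raw counts of each of 6696 genes, used unchanged. The RPKM values deposited beside them imply library totals of which the counts are 30.1% to 57.1% in the 4 IPs, and served only for an alternative scaling; what else entered those totals is not given. The HEL2-FTP files hold RPM per codon, as deposited, which were summed over each gene. Symbols and coordinates came from a RefSeq table of assembly R64, which held 6008 of the 6696 genes.

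Counts of all 16 libraries (8 groups of 2) were fitted together (R 4.3.3, edgeR 4.0.16) after TMM scaling and filterByExpr, so that groups shared an estimate of the spread; contrasts between labels and their differences between fractions came from that fit. SE is the absolute log2 change over the square root of its F statistic. The membrane-enriched set came from limma 3.58.1 on log2(RPM + 0.5) of the HEL2-FTP inputs (mean of at least 1 RPM, adjusted p below 0.05, log2 change of at least 1); a pseudocount understates changes of low genes. Gene lists are described by counts and medians, without a test. The alternatives were DESeq2 1.42.0, other scalings and filters, the 4 IPs alone, a replicate block and leaving out each IP library. The fit was also run on simulated counts in which all 16 libraries shared a mean profile apart from set changes in 1 group. The groups here differ more widely, so nothing is concluded from that run. Floors cover counting error only. The comparison, gene lists and naming rule were chosen with earlier results of these data known. The rule named the SRP genes, HEL2, GIT1 and marker genes always, the 10 largest rises and falls of at least 10 CPM without overlap, up to 3 called members per list, the 5 most abundant called genes and the 6 largest membrane-enriched rises and falls of at least 50 CPM; those described are a part of them. No sequences were used here.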

Additional observations from a re-analysis of the deposited data

Results flagged for a closer look

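The label effect, GIT1p minus SRP72p, was compared between the cytosolic Hel2 IP and the other fractions by an interaction contrast in edgeR, and 31 of the 83 genes named above passed an adjusted p of 0.05 against the cytosolic input, 28 with a larger and 3 with a smaller effect in the IP. Over all 5714 genes tested 633 (11.1%) passed, 478 with a larger and 155 with a smaller effect. The IP libraries are the same as in the main comparison, so these differences are not independent of it. Many of the 83 genes were named for the size of their change in these IP libraries. The number that passed and its split are therefore shaped by that choice and are not a result about the named genes.

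The differences that follow hold for TMM scaling. With RPKM-implied totals 0 membrane-enriched genes had a called larger effect than in the input and 8 a smaller one. Against the input, the label effect of the following secretory and membrane protein genes was larger in the cytosolic IP. On the log2 scale it was larger by 0.97 for KAR2, 0.84 for PDI1, 1.15 for SIL1, 0.59 for SEC61 and 1.10 for HMG2. It was larger by 1.60 for YPS3, 1.08 for YRO2, 0.83 for RTN2, 1.25 for PST1 and 0.96 for CCW12. Among transporters it was larger by 0.79 for HXT4, 0.88 for HXT6, 0.86 for HXT7, 0.50 for AGP1, 0.92 for HIP1, 1.34 for SUL2, 1.08 for PHO84 and 0.73 for ITR1. Other secreted or membrane proteins were PHO5 with 1.38, DGK1 with 1.40 and STE2 with 0.75. Of the SRP genes, SEC65 differed by 0.71 and YKL154W by 1.41, though neither passed the test within the cytosolic IP. The remaining larger effects were 2.44 for RQT4, 1.64 for YER188W, 1.48 for COX9, 0.95 for DDR2 and 0.84 for HTB1. For RQT4 the input levels of the labels overlapped, so its difference is uncertain. The effect was lower in the IP for HIS3 (-2.93), ADE13 (-0.67) and GAP1 (-0.46).

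Against the membrane IP, 14 of the 83 genes differed, 11 with a larger and 3 with a smaller effect in the cytosolic IP. Over all genes tested 186 (3.26%) differed, and the choice of the named genes shapes this count too. The larger ones were SEC61 (0.85), HEL2 (0.85), HMG2 (0.82), KAR2 (0.78), STE2 (0.75), PDI1 (0.73), YPS3 (0.69), GAP1 (0.68), YRO2 (0.61), RTN2 (0.55) and AGP1 (0.52). The smaller ones were RQT4 (-1.82), ARG1 (-0.51) and NDE1 (-0.51). HEL2 fell by 0.58 in the membrane IP (adjusted p = 0.0026, edgeR) and did not pass the test in the cytosolic IP. Groups of 2 libraries are too small for a search for outlying libraries.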

How the results depend on the processing

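The SRP72 rise kept its direction and call in each alternative, at 1.52 to 1.69 when 1 library was left out. The 1625 calls became 595 with RPKM-implied totals, the 1067 rises 583 and the 558 falls 12; the falls numbered 850 with DESeq2, 911 with its size factors in edgeR, 842 with library size alone, 1006 without an expression filter and 322 to 362 when 1 library was left out. The split was 773 up and 1006 down without the filter. Rises numbered 726 to 824 and all calls 1084 to 1186 when 1 library was left out. Calls of the difference from the input (633) became 963 with library size alone, 197 with RPKM-implied totals and 310 to 508 when 1 library was left out, and those from the membrane IP (186) became 0 with RPKM-implied totals (267 at an unadjusted p below 0.05 with edgeR, 266 calls with DESeq2) and 35 to 75 when 1 was left out. With RPKM-implied totals, calls within the input went from 1476 to 5108 and within the membrane IP from 1413 to 147. Of the membrane-enriched genes, 302 rose and 0 fell with RPKM-implied totals, 15 to 20 fell and 358 to 399 rose when 1 library was left out, and their median above other genes was 0.73 for the set from the SRP72p and GIT1p inputs and 0.65 to 0.73 when 1 was left out. SUP45 and TDH2, which fell, were at 0.085 and 0.032 with RPKM-implied totals. The causes were not tested, except that fewer libraries lower the number of calls by construction. Replicate numbers did not pair the samples: deviations of same-numbered libraries correlated at -0.075. With the replicate block 1622 genes were called, 1054 up and 568 down. Single genes were followed for those picked by the naming rule and the mating-type markers, SRP72 aside. With the replicate block 108 of them kept their status, called or not called, and 1 gained and 1 lost a call. With library size alone 103 kept it, 1 gained and 6 lost a call. With RPKM-implied totals 77 kept it, 31 lost their call and 2 changed sign. No tested MATalpha marker passed the filter of a mean of at least 10 CPM over the 16 libraries, so that filter gave no value for them. Low genes were limited by depth, since 3 counts correspond to up to 0.996 CPM in the 4 IPs.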
